A study of Mus musculus with 6 samples.

Results

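Prostaglandin synthesis and signalling were followed through 10 genes in 6 RNA libraries labelled HL-1, a mouse cell line derived from atrial heart muscle. The genes were Pla2g4a, Ptgs1, Ptgs2, Ptges, Ptges2, Ptges3, Ptgis, Ptger4, Ptgfr and Hpgd, taken by symbol from a table of 21959 genes. They were proposed with the difference between the groups in view. For that difference, levels and fold changes are therefore given as a description, without a test.

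All cells underwent oxygen-glucose deprivation and reoxygenation (OGD/R), which imitates ischemia and reperfusion in the dish, with 4 h of hypoxia in medium lacking glucose and then 24 h of reoxygenation. One group of 3 libraries received nothing further (OGD/R). The other 3 came from cells also given 50 µg/mL phillyrin, a lignan glucoside, from 8 h ahead of OGD/R and for another 16 h together with it (OGD/R + Phillyrin). All libraries carry the same genotype label, wild type, and the same batch label, and all cells grew in a medium containing norepinephrine. Cells without OGD/R and cells given only the solvent of phillyrin were not analysed here. Nothing in the labels tells whether cultures differed between the libraries of a group, so the p-values rest on a spread that may be technical. Means are given ± SD over the 3 libraries of a group.

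Prostaglandins are lipid signals made on demand from arachidonic acid. A phospholipase frees the fatty acid from membranes, a cyclooxygenase converts it to prostaglandin H2, and terminal synthases turn that into prostaglandin E2, prostacyclin and other products. These act on G protein-coupled receptors and are inactivated by a dehydrogenase. In heart muscle the inducible cyclooxygenase is known to respond to ischemia and inflammation. In the libraries with phillyrin, Ptgs2 stood at 1.45 times its level without it. The phospholipase gene Pla2g4a, the receptor gene Ptger4 and the synthase gene Ptges3 stood at 1.22, 1.17 and 1.11 times, each with all phillyrin libraries above all others, as in 21.5% of all tested genes. Ptges, a scarce synthase gene, stood at 0.591 times, with all phillyrin libraries below the others, as in 21.6%. For Ptgs1, the other cyclooxygenase gene, the groups overlapped.

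The libraries held between 14761317 and 22123648 counts, and 11658 genes had enough counts to be tested. Mitochondrial genes took 3.18% to 3.30% of the counts in OGD/R and 3.49% to 4.27% with phillyrin. The label was checked against marker genes. Of 16 atrial cardiomyocyte markers 11 were below 0.5 CPM (read counts scaled to the library total after TMM adjustment) in every library, and Myh6, Actn2 and Mybpc3 had no count, while Tnnt2 and Gata4 were present. All 7 skeletal myoblast markers had at least 0.5 CPM in some library, and their summed level was 1252 to 1274 CPM without and 1187 to 1246 CPM with phillyrin. Of these 1, Myod1, passed the test across all genes (edgeR, adjusted p under 0.05) as higher and 3 as lower. Of all tested genes 16.0% passed as higher and 15.6% as lower. Myod1 stood at 83.1 ± 2.18 CPM without and 97.2 ± 4.09 CPM with phillyrin, and Myf5 at 64.2 ± 3.65 and 52.5 ± 2.76 CPM. Myog, too rare to be tested, was at 0.351 ± 0.242 and 0.440 ± 0.413 CPM. Of 8 fibroblast markers, Lum and Tcf21 had no count and Thy1 was also too rare to be tested. Among the rest 3 passed as lower and 0 as higher, where 15.6% and 16.0% of all tested genes did. The 8 fibroblast markers summed to 2280 to 2321 CPM without and 1796 to 1949 CPM with phillyrin. The 16 atrial markers summed to 154 to 156 CPM and 184 to 199 CPM, with 1 of them, Tnnt2, higher. Most of that sum was Tnnt2 itself, at 116 ± 1.79 CPM without and 153 ± 9.34 CPM with phillyrin. Whether these shifts play a part in the values of the 10 genes was not tested. Macrophage and endothelial markers, from cell types that make many prostanoids, were near 0: the 9 macrophage genes summed to at most 4.27 CPM and the 8 endothelial genes to at most 1.345 CPM in any library. Most atrial markers were thus nearly absent, which goes against the label, while all skeletal myoblast markers were detected. The identity of the cells was not settled here, and they are referred to by their label only. In bulk RNA, fewer cells of a type and less RNA per cell cannot be told apart.

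Sequences upstream of 3 of the genes are shown first, because they set the constitutive and the inducible cyclooxygenase and the neighbouring phospholipase side by side. They are RefSeq promoter sequences of build GRCm38.p6, printed 5′ to 3′ on the strand of the gene, and cover the 180 bases before the annotated transcript start. Windows of 300 bases (250 before and 50 after the start) were found for 9 of the 10 genes, 10 windows in all. Capitals mark matches to a searched motif. The stretches are Ptgs2 at chr1:150099851-150100030 on the plus strand, Ptgs1 at chr2:36230246-36230425 on the plus strand and Pla2g4a at chr1:149961291-149961470 on the minus strand. A stretch of 30 bases just after the Ptgs2 start, chr1:150100035-150100064, is added because it holds 2 further matches.
Ptgs2: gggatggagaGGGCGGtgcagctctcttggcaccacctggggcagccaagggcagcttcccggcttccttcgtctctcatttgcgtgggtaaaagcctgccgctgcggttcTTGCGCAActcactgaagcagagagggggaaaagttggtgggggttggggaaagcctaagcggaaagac
Ptgs2, after the start: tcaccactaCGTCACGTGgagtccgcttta
Ptgs1: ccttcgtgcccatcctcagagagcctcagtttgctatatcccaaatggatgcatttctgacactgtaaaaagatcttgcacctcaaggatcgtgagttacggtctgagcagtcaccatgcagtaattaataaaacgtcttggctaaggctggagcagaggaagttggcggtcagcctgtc
Pla2g4a: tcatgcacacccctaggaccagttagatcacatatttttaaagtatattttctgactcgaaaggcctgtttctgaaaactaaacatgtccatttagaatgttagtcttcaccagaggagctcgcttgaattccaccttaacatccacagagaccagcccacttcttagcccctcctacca

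The motifs searched, on both strands, were the E-box CACGTG, the core site TGACG of the cAMP response element (CRE), the full element TGACGTCA (which contains the core site), the C/EBP palindrome TTGCGCAA, the AP-1 site TGANTCA, the TATA box TATAAA, the GC box GGGCGG and the NF-kB site. Of 32851 promoter windows of the same length, 0.183% held the C/EBP palindrome, 7.15% the E-box, 20.8% the CRE core site, 35.7% the GC box and 8.46% the NF-kB site. The full CRE was in 1.79%, the AP-1 site in 7.81% and the TATA box in 13.6%. Positions count the annotated transcript start as 1, and where transcription starts in these cells was not examined. The Ptgs2 window had a GC box at -170 and the C/EBP palindrome at -69. It also had a CRE core site at 14 on the minus strand and an E-box at 17 that overlaps it. Neither the Ptgs1 window nor the Pla2g4a window printed above held any of the 8 motifs, and the window of a second, downstream Pla2g4a start held a TATA box alone. Among the other genes, the E-box was found again in Ptges2, and a CRE core site and an NF-kB site in Ptges3. Ptger4, Ptges, Ptgfr, Hpgd and Ptges3 held GC boxes, and the Hpgd window also a TATA box at 5. A match describes the letters of these windows and is not evidence that a factor binds there.

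**Figure D1:**
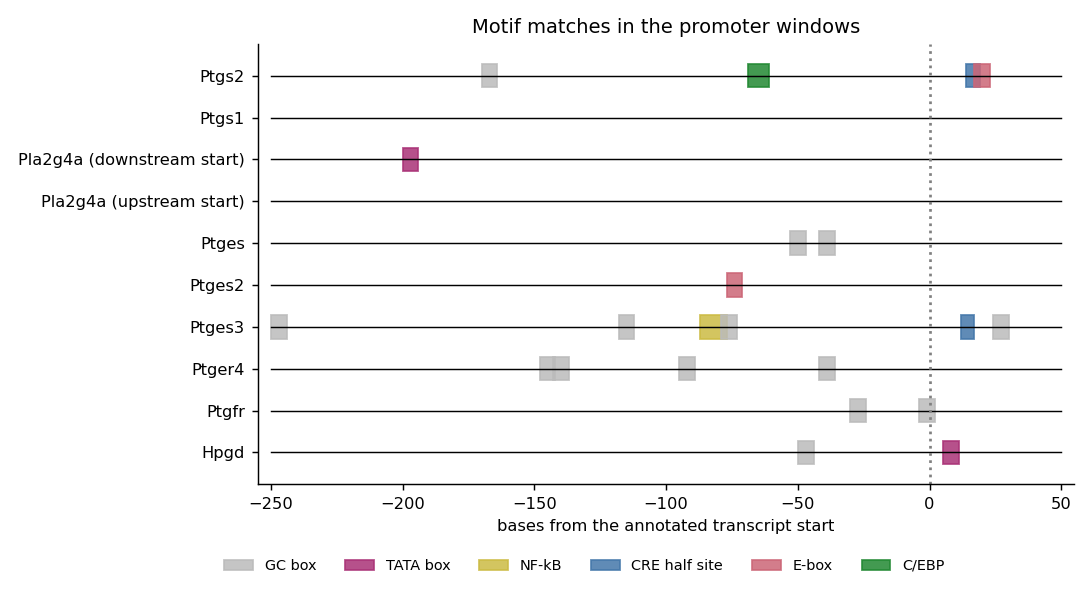
Motif matches in the 10 promoter windows of 9 genes, as bases from the annotated transcript start on the x axis and 1 line per window. Ptgs2 carries 4 matches of 4 kinds, 2 of them overlapping just after the start, while the Ptgs1 line is empty.

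Levels per gene length separated the 10 genes into steps. In FPKM, fragments scaled by gene length and by library total, the unit that allows levels of different genes to be compared, Ptges3, Ptgs1 and Ptgs2 stood far above the rest. Ptges3 was at 156 ± 3.74 FPKM in OGD/R, Ptgs1 at 122 ± 1.247 FPKM and Ptgs2 at 90.5 ± 1.37 FPKM. Among the 15522 genes with any count, 98.7%, 98.2% and 97.4% had a lower mean level in OGD/R than Ptges3, Ptgs1 and Ptgs2. Pla2g4a (8.29 ± 0.484 FPKM), Ptgis (6.26 ± 0.340 FPKM), Ptger4 (5.35 ± 0.230 FPKM) and Ptges2 (4.91 ± 0.334 FPKM) formed the middle. Ptges and Ptgfr were below 0.6 FPKM in every library, and Hpgd had 3 counts in all 6 libraries together.

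Most neighbours in this order were apart in every OGD/R library. The ranges of Ptger4 and Ptges2 overlapped, as did those of Ptges and Ptgfr, so neither pair was apart over the group, although within each OGD/R library Ptger4 was above Ptges2 and Ptges above Ptgfr. With phillyrin, Ptgs2 (127 ± 4.72 FPKM) stood above Ptgs1 (117 ± 3.87 FPKM), the reverse of their order in OGD/R. The ranges came close, the lowest Ptgs2 value being 122.2 and the highest Ptgs1 value 121.6 FPKM. Ptgfr and Ptges also changed places, but their ranges overlapped in both groups. The ranges of Ptgis and Ptger4 overlapped with phillyrin and were apart in OGD/R, with Ptgis above Ptger4 within each library.

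**Figure D2:**
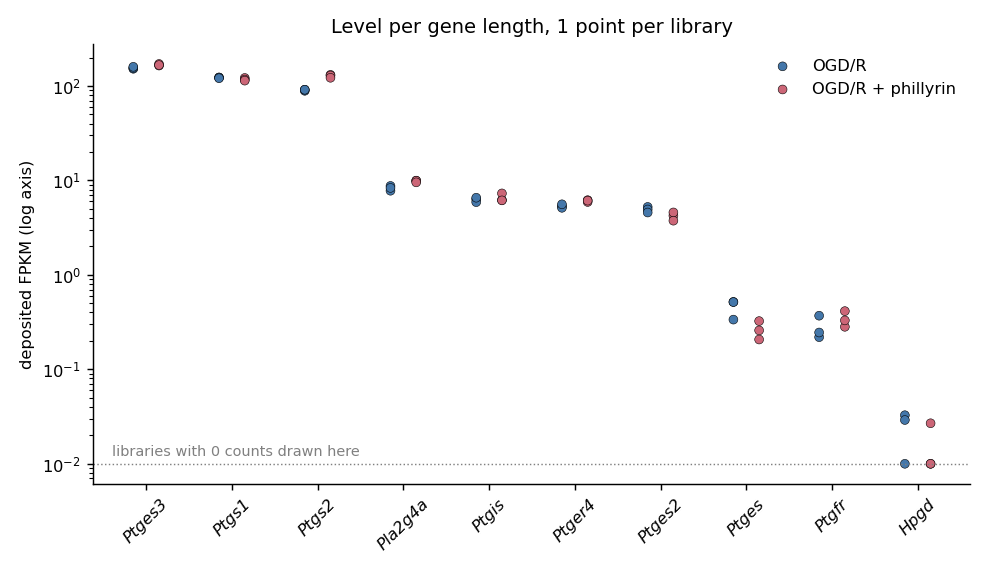
Deposited FPKM of the 10 genes in each library (log axis), ordered by the mean in OGD/R, with OGD/R in blue and OGD/R + Phillyrin in red. Ptges3, Ptgs1 and Ptgs2 form the top step in both groups, and Hpgd is drawn at a line for 0 counts in 3 of 6 libraries.

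Pla2g4a (ENSMUSG00000056220, chromosome 1, 149705369 to 149837041) encodes cytosolic phospholipase A2 alpha, which frees arachidonic acid for the cyclooxygenases. It stood at 48.9, 55.1 and 52.6 CPM in the OGD/R libraries and at 64.2, 64.1 and 62.6 CPM in the phillyrin ones. All phillyrin libraries were above all OGD/R libraries, with a log2 fold change, OGD/R + Phillyrin against OGD/R, of 0.29 (SE 0.06). Pla2g4a is also the nearest gene of the table before Ptgs2 on chromosome 1: the 2 lie 138740 bases apart on opposite strands, with no gene of the table between them. Gene positions are those of the deposited table, read as GRCm39, the build in the submitters' processing notes.

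Ptgs2 (ENSMUSG00000032487, chromosome 1, 149975782 to 149983978) encodes cyclooxygenase 2, the inducible enzyme of the first committed step. It stood at 400, 412 and 413 CPM in the OGD/R libraries and at 606, 597 and 574 CPM in the phillyrin libraries. The lowest phillyrin library was thus well above the highest OGD/R library. The log2 fold change was 0.54 (SE 0.03), or 45.2% more, and 264 of the 11658 genes tested had a larger increase. The coefficient of variation between libraries was 1.72% in OGD/R and 2.79% with phillyrin, where counting error alone gives 1.12% and 0.973%.

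Ptgs1 (ENSMUSG00000047250, chromosome 2, 36120438 to 36142284) encodes cyclooxygenase 1, the form that most tissues keep at a steady level. Its level was 470, 470 and 463 CPM in the OGD/R libraries and 477, 459 and 454 CPM in the phillyrin ones. The 2 groups overlapped, and the log2 fold change was -0.01 (SE 0.03). Within each library, Ptgs2 had 0.722, 0.744 and 0.756 times the FPKM of Ptgs1 in OGD/R, and 1.08, 1.10 and 1.07 times with phillyrin. This ratio of 2 genes in the same library does not depend on how libraries are scaled, and its groups did not overlap.

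**Figure D3:**
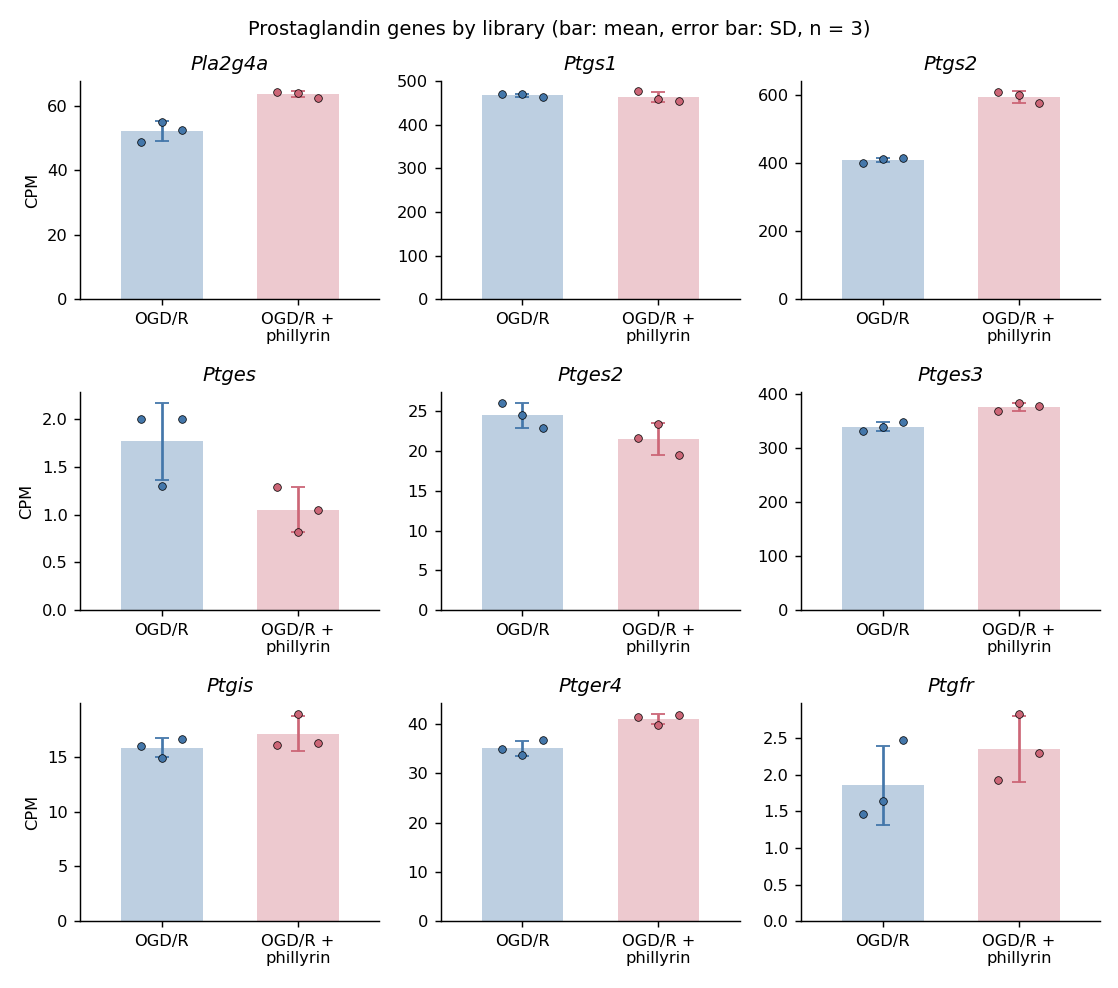
CPM of the 9 tested genes by group, with bars for the mean, error bars for the SD and 1 point per library (n = 3 a group, each axis from 0). Ptgs2, Pla2g4a, Ptges3 and Ptger4 have all phillyrin points above all OGD/R points and Ptges has all below, while the other 4 genes overlap (of all tested genes, 43.1% had groups that did not overlap).

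The 3 genes named as prostaglandin E synthases differed widely in level, and their log2 fold changes had both signs. Ptges3 (ENSMUSG00000071072, chromosome 10, 127894823 to 127913141) encodes the cytosolic synthase, better known as the HSP90 co-chaperone p23. Its level was 331, 339 and 349 CPM in the OGD/R libraries and at 368, 383 and 379 CPM in the phillyrin ones. These groups did not overlap, with a log2 fold change of 0.15 (SE 0.04). Of its stretches of 50 bases, 19.6% also occur in Ptges3-ps or Gm11893, so part of its reads could come from those copies.

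Ptges2 (ENSMUSG00000026820, chromosome 2, 32285908 to 32295784) encodes a membrane-associated synthase. It stood at 26.1, 24.5 and 22.8 CPM in the OGD/R libraries and 21.6, 23.4 and 19.5 CPM in the phillyrin ones, and the groups overlapped. The log2 fold change was -0.18 (SE 0.08), and -0.11 without phillyrin replicate 3, the library with the lowest value. Ptges (ENSMUSG00000050737, chromosome 2, 30779483 to 30819875) encodes the microsomal synthase that is induced together with Ptgs2 in many inflamed tissues. It was rare here, with 37, 27 and 38 counts in OGD/R and 22, 18 and 15 counts with phillyrin, or 2.00, 1.30 and 2.00 CPM against 1.29, 0.822 and 1.04 CPM. The groups were separated by a margin of 1.30 against 1.29 CPM, and the log2 fold change was -0.76 (SE 0.32). Its coefficient of variation, 22.8% and 22.1%, stood beside 17.1% and 23.4% from counting error alone. Of the summed FPKM of the 3 genes, Ptges3 made up 96.4% to 96.9% in the OGD/R libraries and 97.3% to 97.6% in the phillyrin libraries.

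Ptgis (ENSMUSG00000017969, chromosome 2, 167033725 to 167082524), prostacyclin synthase, is best known from vessel walls. It stood at 15.9, 14.9 and 16.6 CPM in the OGD/R libraries and 16.1, 18.9 and 16.2 CPM in the phillyrin ones. The groups overlapped, with a log2 fold change of 0.12 (SE 0.10), which was 0.03 without phillyrin replicate 2, the library with the highest value.

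Ptger4 (ENSMUSG00000039942, chromosome 15, 5236142 to 5273668) encodes EP4, the receptor through which prostaglandin E2 raises cAMP. It stood at 34.8, 33.6 and 36.7 CPM in the OGD/R libraries and at 41.5, 39.7 and 41.7 CPM in the phillyrin ones. The groups did not overlap, with a log2 fold change of 0.22 (SE 0.07). Ttc33 overlaps it on the other strand, and 14.4% of the 50-base stretches of Ptger4 occur in Ttc33 or Gm15937. The strand setting of the counting is not given in the sources used here, so reads of the overlap cannot be assigned to either gene. Ttc33 itself stood at 30.3 ± 1.05 and 32.8 ± 1.53 CPM, and was not called (edgeR adjusted p = 0.257; log2 fold change 0.11, SE 0.07).

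Ptgfr (ENSMUSG00000028036, chromosome 3, 151502139 to 151543267) encodes FP, the receptor of prostaglandin F2 alpha. With 27, 34 and 47 counts in OGD/R and 33, 62 and 33 with phillyrin, it stood at 1.46, 1.64 and 2.47 CPM and at 1.93, 2.83 and 2.29 CPM. These groups overlapped, and the log2 fold change of 0.36 (SE 0.26) lay between 0.18 without phillyrin replicate 2 and 0.61 without OGD/R replicate 3. Hpgd (ENSMUSG00000031613, chromosome 8, 56747620 to 56774078) encodes the dehydrogenase that begins the breakdown of prostaglandins. It had 1, 1 and 0 counts in OGD/R and 0, 1 and 0 counts with phillyrin, too few for a fold change.

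Across the 10 genes, 9 could be tested as part of the whole table. No calls are given for these 9, whose choice drew on the difference between the groups. By the same fit 0 were called lower, where 15.6% of all tested genes were. DESeq2 and limma-voom were run on the same counts. Over the table DESeq2 called 1716 genes higher and 1464 lower, and limma-voom 1856 higher and 1841 lower. Among the 9 genes, the groups did not overlap for Ptgs2, Pla2g4a, Ptges3 and Ptger4 in the higher direction (21.5% of all tested genes). In the lower direction they did not overlap for Ptges (21.6%). These were 5 genes, where 43.1% of all tested genes had such groups. Since the 10 genes were chosen from this comparison, nothing is read from these counts. Their median log2 fold change was 0.15, against -0.01 for all genes tested.

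The longest annotated 3′ untranslated regions of the 10 genes (GENCODE M21, GRCm38) were searched for the pentamer ATTTA, the core of AU-rich elements, which can shorten the life of an mRNA. Ptgs2 is a textbook case of such control. Its 30 bases from 12 to 41 after the stop codon are shown because they hold 4 pentamers, in capitals.
Ptgs2, after the stop codon: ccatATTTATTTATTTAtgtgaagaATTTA
The whole Ptgs2 region had 14 pentamers in 2445 bases, 5.73 per kilobase, and 95.8% of the 11221 tested genes with such a region had a lower density. Pla2g4a had 4 in 443 bases (9.03 per kilobase), Hpgd 4.77 per kilobase, Ptger4 4.06, Ptges3 3.37, Ptgfr 2.73 and Ptges2 1.16, with a median of 1.40 over the tested genes. Ptgs1, Ptges and Ptgis had no pentamer. Densities above that median were thus found in 6 of the 10 genes, among them Hpgd, which was hardly detected. No relation between density and the difference between the groups was tested.

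**Figure D4:**
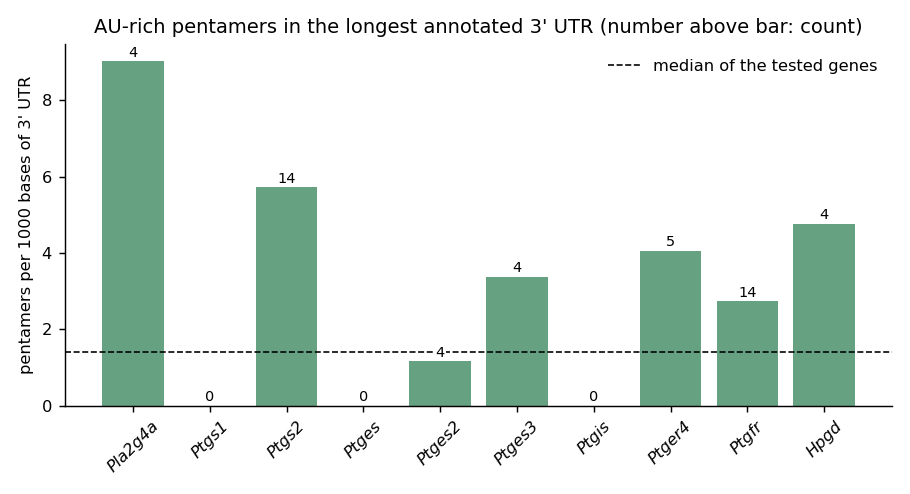
AU-rich pentamers per kilobase of the longest annotated 3′ untranslated region, 1 bar per gene, with the number of pentamers above each bar and a dashed line at the median of the tested genes, 1.40. Pla2g4a and Ptgs2 have the highest bars, and Ptgs1, Ptges and Ptgis are at 0.

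The other genes of the pathway, and genes that act on Ptgs2 or after its products, were examined as 7 lists with 116 genes. The lists were drawn up with earlier results of these data known, so their p-values and shares are not independent of those results. Of the 116 genes, 78 were tested, and 13 passed as higher and 13 as lower. That was 33.3% against 31.7% of all tested genes, so the share called was close to that of the table. Medians below are of the log2 fold changes of a list's tested genes. With library size as the sole scaling, 11 passed as higher and 19 as lower. Over the table, 1871 genes were higher and 1823 lower, and 1313 and 2455 with that scaling. For an unadjusted p under 0.05 no share over the table was computed, so nothing is read from counts of list genes at that level.

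In arachidonate release and storage, 15 of 28 genes were tested, 1 passed as higher and 2 as lower, with a median of 0.06. Anxa1, annexin A1, a protein known to restrain cytosolic phospholipase A2, fell from 1269 ± 18.7 to 1099 ± 35.3 CPM (edgeR adjusted p = 4.54e-06; log2 fold change -0.21, SE 0.03). Lpcat3, which puts arachidonate into phospholipids, fell from 30.1 ± 0.464 to 24.7 ± 1.31 CPM (edgeR adjusted p = 0.00273). Plaat3, a phospholipase of fat cells, was higher (edgeR adjusted p = 0.0289; log2 fold change 0.28, SE 0.10). Plaat3 did not keep its call when any of 4 libraries was left out: adjusted p was 0.0624 and 0.123 without OGD/R replicates 1 and 2, and 0.0857 and 0.0906 without phillyrin replicates 1 and 2. It was 0.0518 with DESeq2 and 0.0711 with library size as the sole scaling.

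Among 10 other prostanoid synthases, 5 were below 0.5 CPM in every library. Ptgds and Prxl2b had no count, and the thromboxane synthase Tbxas1 had 16 counts in all. Akr1b3, an aldose reductase that can make prostaglandin F2 alpha, stood at 132 ± 3.16 and 130 ± 6.19 CPM and was not called (edgeR adjusted p = 0.772; log2 fold change -0.02, SE 0.04). Of the 5 tested, 1 passed as higher and 0 as lower by each of the 3 tools, with 0 lower also at an unadjusted edgeR p under 0.05. Akr1c14, a hydroxysteroid dehydrogenase, rose from 7.20 ± 0.237 to 10.6 ± 1.47 CPM (edgeR adjusted p = 0.00117; log2 fold change 0.55, SE 0.13). The list's median was -0.02.

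Beyond Ptger4 and the rare Ptgfr, most prostanoid receptors were scarce too. Of 10 further genes on that list, 6 were below 0.5 CPM in every library. Ptger3 and Ptgdr had no count, which allows up to 0.0269 CPM over the 111513800 counts of all libraries. Ptgir, the prostacyclin receptor, averaged 13.1 ± 0.187 CPM without phillyrin and 11.4 ± 1.55 CPM with it. It did not pass the test (edgeR adjusted p = 0.148; log2 fold change -0.21, SE 0.11). Of the counts of the 9 cell-surface prostanoid receptors, Ptger4 took 68.9% to 69.9% in the OGD/R libraries and 73.2% to 75.6% in the phillyrin libraries, uncorrected for gene length. The list's other detected genes, the fatty acid-binding nuclear receptors Pparg and Ppard and the FP-associated protein Ptgfrn, did not pass either. Of the 4 tested genes 0 were called by edgeR, DESeq2 or limma-voom, and 1 was at an unadjusted edgeR p under 0.05.

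In prostaglandin transport and breakdown all 8 genes were tested, 2 passed as higher and 0 as lower by edgeR, DESeq2 and limma-voom, with a median of 0.03. No gene of the list was lower at an unadjusted p under 0.05 either. Abcc4, an exporter of prostaglandins and cyclic nucleotides, rose from 49.0 ± 2.09 to 60.1 ± 3.15 CPM (edgeR adjusted p = 0.000179; log2 fold change 0.30, SE 0.06). Ptgr1, a reductase of oxidised prostaglandins, rose from 59.2 ± 0.894 to 68.7 ± 5.13 CPM (edgeR adjusted p = 0.00295; log2 fold change 0.22, SE 0.06).

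Factors that act on Ptgs2 transcription or on the life of its mRNA numbered 27, all tested. Of these 4 passed as higher and 9 as lower, 48.1% where the table had 31.7%, a difference that was not tested. Among transcription factors, Nfatc2 fell from 9.94, 8.20 and 7.31 CPM in the OGD/R libraries to 5.09, 3.61 and 4.38 CPM in the phillyrin ones (edgeR adjusted p = 9.48e-06; log2 fold change -0.97, SE 0.16). Etv4, of the ETS family, fell from 131 ± 3.16 to 102 ± 8.50 CPM and Jun, of AP-1, from 130 ± 2.51 to 111 ± 4.89 CPM (edgeR adjusted p = 3.65e-07 and 7.45e-05). Mapkapk2, the kinase that stabilises AU-rich mRNAs downstream of p38, rose from 112 ± 3.77 to 132 ± 4.95 CPM (edgeR adjusted p = 9.50e-05; log2 fold change 0.23, SE 0.04). The other genes called, named after their values were seen, were Elavl1, Tial1 and Rbm3, higher, and Atf2, Nfkb1, Ets1, Zfp36l2, Hnrnpd and Mapk14, lower, with log2 fold changes from -0.20 to 0.17. The list's median was -0.06.

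Genes known to respond to cAMP, the messenger of EP4, went both ways: 12 of 15 were tested, 3 passed as higher and 2 as lower, with a median of 0.14. Pde4b, a phosphodiesterase that breaks down cAMP, rose from 34.3 ± 1.33 to 50.1 ± 3.82 CPM (edgeR adjusted p = 4.31e-08; log2 fold change 0.54, SE 0.07). Areg, the growth factor amphiregulin, rose from 71.5 ± 0.751 to 83.3 ± 2.31 CPM and Bhlhe40, a clock repressor, from 83.8 ± 2.26 to 102 ± 3.85 CPM (edgeR adjusted p = 0.000926 and 1.54e-05). Per1, a clock gene with cAMP response elements, fell from 28.6 ± 1.15 to 18.9 ± 0.764 CPM (edgeR adjusted p = 2.53e-07; log2 fold change -0.60, SE 0.08). Nr4a1 was the other gene called lower.

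**Figure D5:**
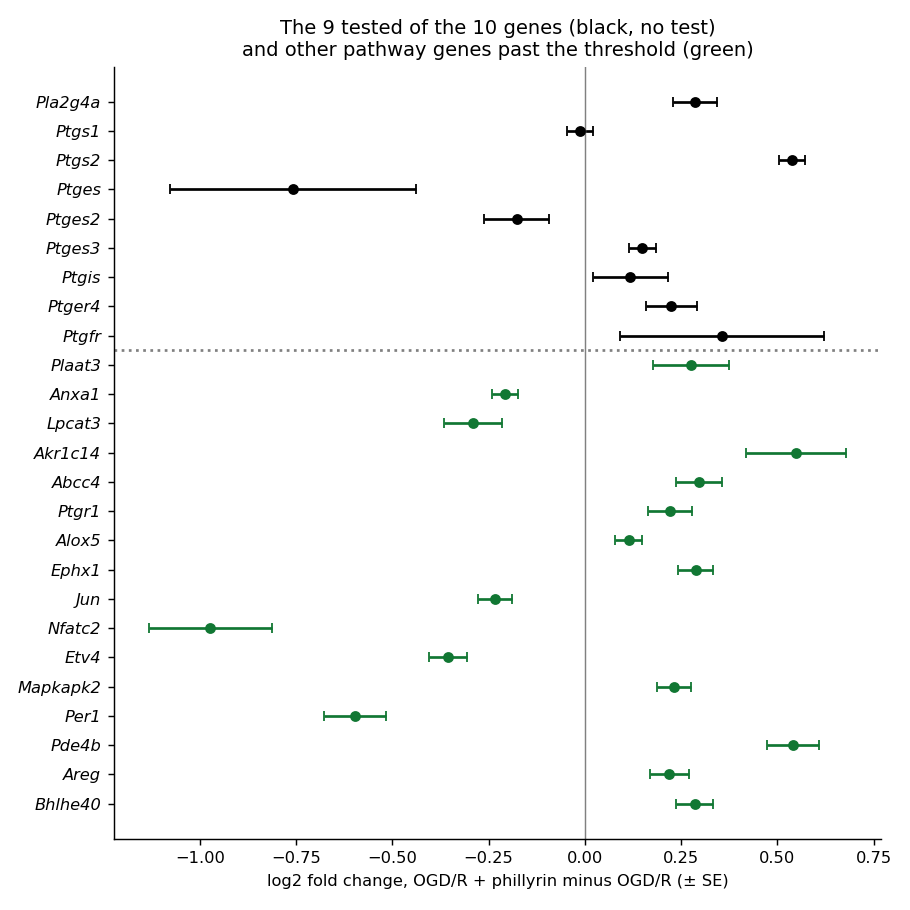
Log2 fold changes of OGD/R + Phillyrin against OGD/R with their SE on the x axis, for the 9 genes tested of the 10 (black, no test) and for the named genes of the other lists that passed the threshold (green). Ptgs2 lies at 0.54 with a narrow error, Ptges has the widest, and the green points lie on both sides of 0.

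The genes whose levels followed Ptgs2 most closely over the 6 libraries, by Pearson's r of log2 CPM among 9534 genes, were Fstl1, Diaph3, Lox, Ttk and Txnrd1, with r between 0.9973 and 0.9987. They encode a secreted glycoprotein, a formin, a collagen cross-linking oxidase, a spindle checkpoint kinase and a thioredoxin reductase. Their log2 fold changes ran from 0.33 to 0.38, smaller than the 0.54 of Ptgs2. With 2 groups of 3, such values mostly reflect the step between the groups, and 1055 genes had r over 0.9.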

How the data were processed

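Poly(A)-selected RNA was sequenced, per the labels' protocols. The submitters' processing notes name the build GRCm39 and, without roles or settings, DESeq2 1.34.0, featureCounts 2.0.3, HISAT2 2.2.1 and Trimmomatic 0.39. Whether counting used strand, and how reads with several alignments were treated, is not given in the sources. Per the file headers, the deposited table gives for every library a read count of each gene and its FPKM. FPKM deposited by the authors equalled count over gene length and library total, to a relative difference of 2.43e-07.

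Counts were filtered with filterByExpr, scaled with TMM factors and tested with edgeR 4.0.16 (quasi-likelihood, robust, two-sided; R 4.3.3), with Benjamini-Hochberg adjustment over 11658 genes at 0.05. CPM used TMM-scaled library sizes, and log2 CPM a prior count of 2. The SE of a log2 fold change was derived from it and its F statistic. The code of the fit was run on counts simulated from its own model, with fold changes larger than most given here. Such a run checks the code and does not cover differences between cultures. Columns were assigned by sample title, since the description gives the 3 phillyrin libraries the same column name. The 10 genes and all lists were chosen with earlier results of these data known. Named were all 10 genes, up to 4 genes with the smallest p per list among those past the threshold, synthases and receptors with no count, overlapping genes, and the 5 genes most like Ptgs2 with a mean of at least 5 CPM, leaving out predicted genes. Ptgr3 was matched through its older symbol Zadh2. Alternatives were RLE factors, library size only, no filter on low counts, a mean of at least 1 CPM, DESeq2 1.42.0, limma-voom (limma 3.58.1), leaving out each library, and the replicate number as a block. Limits for 0 counts use 3 counts and cover counting error only, as reads without molecular identifiers are not independent molecules. No protein sequence was used here.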

Additional observations from a re-analysis of the deposited data

How the results depend on the processing

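The counts of calls over the table and over the other pathway lists together, and the fold changes of the 9 genes and of 16 named list genes, were recomputed under 13 alternatives. The counts for single lists, the overlaps of groups, marker sums, ratios within libraries and likeness to Ptgs2 were not, except that calls per list were also made with DESeq2 and limma-voom. All 78 counts of calls stayed within 1.5 times the main count. Without single libraries, the genes called over the table numbered 2901 to 3567, higher 1434 to 1899 and lower 1412 to 1668, and those of the other pathway lists 25 to 28, higher 11 to 15 and lower 13 to 14. Of 117 fold changes of the 9 genes, 114 moved by less than the SD between libraries. For the fits without single libraries this outcome was nearly fixed in advance. Leaving out 1 of 3 libraries can hardly move a group mean by that much. The fold changes that moved further came with scaling by library size only. It put Ptgs2 at 0.49, Ptgs1 at -0.06 and Ptges3 at 0.10 on the log2 scale and the median of all tested genes at -0.06. The Ptgs2 value lay between 0.52 and 0.56 without single libraries, and that of Ptgfr between 0.18 and 0.61. Alox5 lost its call with that scaling (edgeR adjusted p = 0.117), without OGD/R replicate 1 (0.0560) and without OGD/R replicate 3 (0.0697). With Plaat3, described above, these were the 9 of 208 values of named list genes that lost a call, and none reversed. The order of the 10 genes per length had 1 alternative, TMM-scaled library sizes, and was the same. That alternative scales all genes of a library alike, so it cannot change their order within the library. Gene lengths were not varied. Replicate numbers are shared by the groups, and deviations of same-numbered libraries correlated at 0.0028, 0.0056 and 0.0032. Every OGD/R library correlated best with its own number, but the other correlations were also near 0. Values this small cannot tell whether the samples were paired. With the replicate block 3708 genes were called over the table, 1867 higher and 1841 lower, and 26 of the other pathway lists, and Ptgs2 was at 0.54. Depth limits Ptges and Ptgfr, with a counting error of 15.3% to 23.4% for a library, and Hpgd, with 3 counts. The differences between the groups were -40.9% for Ptges and 28.1% for Ptgfr.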

Other observations

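Arachidonic acid also feeds lipoxygenases, which make leukotrienes, and epoxygenases. Of 18 genes of these branches 11 were below 0.5 CPM in every library, 7 were tested, and 2 passed as higher and 0 as lower by edgeR, DESeq2 and limma-voom (1 lower at an unadjusted edgeR p under 0.05), with a median log2 fold change of -0.04. Alox5, the 5-lipoxygenase best known from white blood cells, was abundant, with 240.6 ± 2.17 CPM without and 260.4 ± 2.93 CPM with phillyrin. The edgeR adjusted p was 0.0137 with a log2 fold change of 0.11 and an SE of 0.04, and the adjusted p was 0.0560 and 0.0697 without OGD/R replicates 1 and 3, and 0.117 with library size as the sole scaling. Its partner protein Alox5ap had 16 to 47 counts a library, Ltc4s at most 2, and the receptors Ltb4r1, Cysltr1 and Cysltr2 had 0, and of the 9 macrophage markers Cd68 had 41 to 65 counts a library, Csf1r 0 to 11 and the other 7 at most 5. Ephx1, an epoxide hydrolase, rose from 109.9 ± 4.83 to 134 ± 4.25 CPM (edgeR adjusted p = 3.34e-06; log2 fold change 0.29, SE 0.04).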
